A study of Mus musculus with 75 samples.

Results

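The genes described here are the numbered Zfp genes of the mouse, defined as every gene entry whose symbol is Zfp followed only by digits, with Zfp36 left out, and whose mean over all 75 libraries was at least 5 CPM (a gene's share of a library's counted reads, on the usual per-library scale and with unscaled totals). Of 372 such symbols among 45706 gene entries, 245 reached that mean and are called the members. The other 127 did not, and 13 of those had no read in any library. Just inside the threshold were Zfp935 at 5.01 CPM and Zfp599 at 5.04 CPM, and just outside it Zfp58 at 4.97 CPM and Zfp688 at 4.87 CPM. The members were chosen by their name and this mean level, and the family itself was selected on its TNF change at 1 h, which an earlier reading of these data had shown to be low. The 1 h values are therefore given as a description, without p-values for single members against 0 h.

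Zfp genes encode zinc finger proteins, most of which carry arrays of C2H2 fingers, small folds around a zinc ion that read DNA or RNA. Many also carry a KRAB domain, which binds the corepressor Trim28 and through it brings in the histone methyltransferase Setdb1 and heterochromatin proteins, and such KRAB zinc finger proteins are known for silencing retroelements and imprinted regions. Others have no KRAB domain and act as transcription factors, RNA-binding proteins, ubiquitin ligases or ribosome factors, so the name marks a fold and not a pathway.

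Polyadenylated RNA was sequenced from C57BL/6 mouse embryonic fibroblasts of the genotype p53-/-crel-/-rela-/-, so that every group lacked its own p53, c-Rel and RelA. The cells carried the retroviral vector pBABE-puro, either empty (EV) or with RelA, the NF-kB subunit whose C-terminal part holds 2 transactivation domains, TA1 and TA2. RelA-WT is the wild type, and RelA-dTA1 and RelA-dTAD are mutants named for TA1 and for the transactivation domain, whose exact changes the labels do not spell out. After a night in 0.5% serum the cells were given TNF, an inflammatory cytokine that activates NF-kB, at 10 ng/ml, and were harvested at 0, 0.5, 1, 3 and 8 h. These 4 constructs had 2 libraries at each time, 1 in each of 2 deposited sets, and 7 further RelA mutants had 1. The latter were RelA-DB and RelA-dCterm in set 1, and RelA-TA2_CI, RelA-TA2_CI-dTA1, RelA-TA2_S467A, RelA-TA2_CI_S467A and RelA-TA2_CI_S467A-dTA1 in set 2, given here by the names in the labels, which do not spell out their changes either. There were no time-matched cells without TNF, so a TNF change includes whatever changed with time alone. Whether the libraries of a group came from separate cultures is not in the labels, and the p-values therefore speak of library-to-library spread alone, which may be technical. Set 1 held 4422396 to 6915919 counted reads per library and set 2 held 10440202 to 22908738, and the members took 0.672% to 0.879% of them. All 10 fibroblast markers checked were present, with 36570 to 54990 CPM in all, against 1.68 to 5.27 CPM for 7 leukocyte markers. Summed levels were 92.9 to 238.9 CPM for 5 neural markers, mostly Map2 and Tubb3. For 4 endothelial markers, mostly Kdr and Tek, they were 30.9 to 55.2 CPM. They were 2.26 to 12.45 CPM for 4 epithelial markers and 0.192 to 7.09 CPM for 3 muscle markers.

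The members differed widely in level, from 5.01 to 332 CPM with a median of 19.5. The highest were Zfp106, an RNA-binding protein, at 332 CPM, Zfp91, a ubiquitin ligase of noncanonical NF-kB signalling, at 205 CPM, and Zfp521, a transcription cofactor of mesenchymal progenitors, at 204 CPM. Per kilobase of exon, which allows genes to be compared, Zfp703 was highest at 39.2 CPM per kb, followed by Zfp521 at 33.2, Zfp146 at 33.0 and Zfp106 at 31.8. A KRAB box pattern was found in the annotated protein of 117 members, not found in 127, and 1 member, Zfp469, had no coding transcript in the annotation used. Members with the pattern had a median of 12 fingers and a median level of 12.3 CPM, and those without it 8 fingers and 31.8 CPM. The pattern misses some known KRAB genes, among them Zfp90 and Zfp93, so the second class is not free of them. Chromosome 7 held 55 members, 22.4% of them against 6.96% of all genes at that mean, and chromosome 17 held 34, 13.9% against 4.83%. Neighbouring paralogs of this family have near-identical stretches and can share reads, so the values of single members in such clusters are uncertain. The gene spans of 19 members overlapped another tested gene, 17 of them on the other strand (Zfp106 and Zfp335 among them), and it is not known whether reads were counted by strand.

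After 1 h of TNF the members were lower in the median in each of the 4 constructs, with the lowest median in cells with wild-type RelA. In RelA-WT the median log2 change from 0 h was -0.26 and 196 of the 245 members were below 0, whereas the median over all 13665 genes tested was 0.00. In RelA-dTA1 the median was -0.20 with 198 members below 0, in EV it was -0.16 with 185, and in RelA-dTAD it was -0.14 with 185. Cells with no RelA at all thus had lower levels at 1 h too. By edgeR's quasi-likelihood test with Benjamini-Hochberg adjustment over all genes (threshold 0.05), 19 members were called lower and 5 higher in RelA-WT, where 0.695% of all genes were called lower and 2.55% higher. Since the family was picked on this contrast, the calls at 1 h, in this and the other constructs and fits, are a description and support nothing. In RelA-dTA1, 13 members were called lower and 0 higher (0.212% and 1.41% of all genes), with 65 members at an unadjusted p under 0.05 in either direction and 0 called higher by DESeq2 too. In EV, 3 were called lower and 1 higher (0.0585% and 0.768%), and in RelA-dTAD 1 and 1 (0.0146% and 0.534%). With the replicate block, a term for the set, the calls were 69 lower and 8 higher in RelA-WT (2.31% and 4.49% of all genes). They were 38 and 2 in RelA-dTA1 (1.38% and 3.29%), 12 and 2 in EV (0.461% and 1.72%), and 10 and 1 in RelA-dTAD (0.315% and 1.58%). With only 1 set for the construct, 4 members were called in RelA-WT with either set left out, while the median stayed between -0.30 and -0.24.

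**Figure D1:**
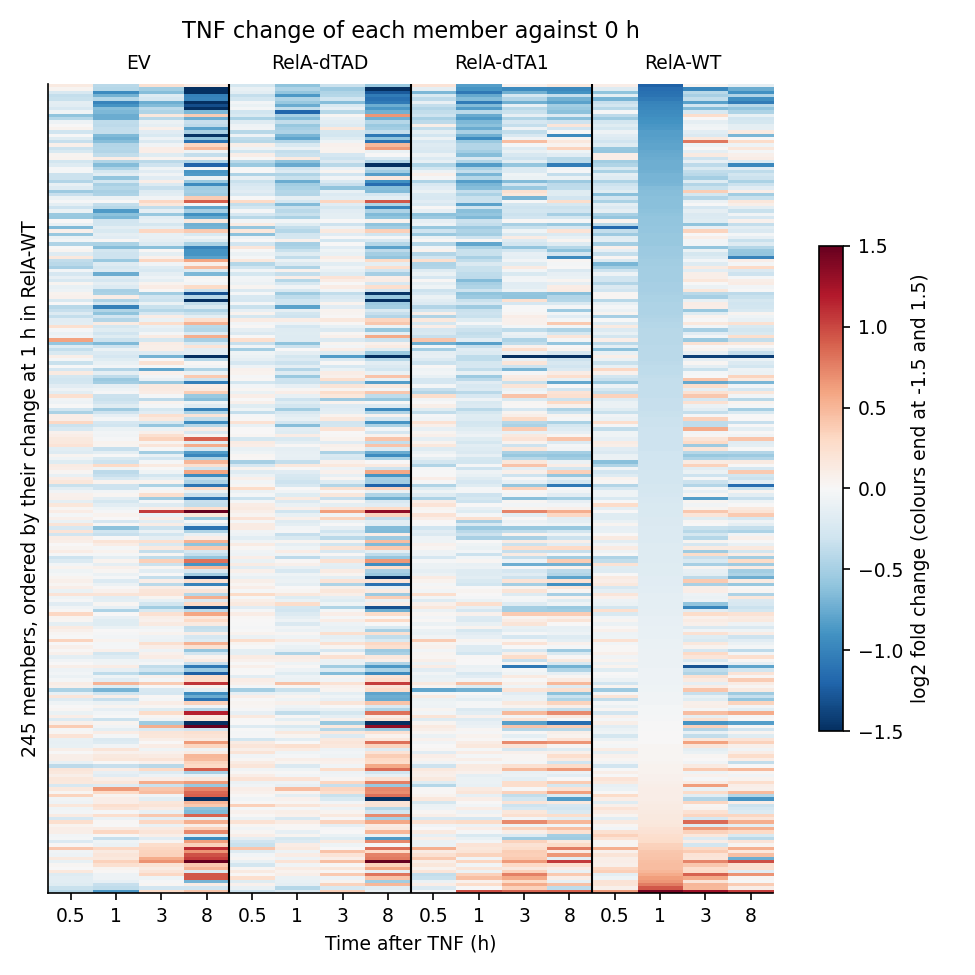
Log2 fold change against 0 h of each of the 245 members (rows, ordered by their change at 1 h in RelA-WT) at each time (columns, in hours) in the 4 constructs with 2 libraries, blue for lower and red for higher. The 1 h columns are mostly blue in all 4 constructs, with medians of -0.26 in RelA-WT, -0.20 in RelA-dTA1, -0.16 in EV and -0.14 in RelA-dTAD, and the 8 h columns of EV and RelA-dTAD hold the deepest blue and red.

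Single members show the size of the fall. Zfp157, a KRAB zinc finger gene, was at 33.7 CPM in set 1 and 31.5 CPM in set 2 before TNF in RelA-WT, at 15.3 and 15.7 CPM at 1 h, and at 26.9 and 23.6 CPM at 3 h. Both 1 h libraries lay below all other RelA-WT libraries of this gene, and the log2 change at 1 h was -1.06 ± 0.17 (SE). In EV it went from 31.0 and 28.1 CPM to 18.2 and 24.7 CPM at 1 h. Zfp12, also a KRAB gene, was at 31.5 and 32.6 CPM before TNF in RelA-WT, at 16.4 and 17.7 CPM at 1 h and at 26.3 and 31.4 CPM at 3 h. Its 1 h libraries did not overlap those of any other time. Zfp503, which has no KRAB pattern and encodes a developmental corepressor, was at 130.5 and 113 CPM before TNF in RelA-WT and at 54.9 and 54.7 CPM at 1 h, a log2 change of -1.14 ± 0.13. Unlike the KRAB examples it stayed low, at 61.2 and 62.1 CPM at 3 h. The lowest value of all belonged to Zfp442, from 5.91 and 5.97 CPM to 2.48 and 2.59 CPM, with a log2 change of -1.21 ± 0.26 at a level close to the threshold for members. Zfp763 at -1.11 ± 0.22 and Zfp563 at -1.11 ± 0.24, which both lie on chromosome 17 (mm10, chr17:33016863-33033402 and chr17:33089310-33106203), came next among the KRAB genes. In EV the lowest were Zfp661 at -1.01 ± 0.23 and Zfp763 at -0.94 ± 0.21.

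The 1 h dip was present in each time course, where a course is 1 construct in 1 set. The family was picked on the 1 h change in these data, so the courses are a description and not a separate check. There were 15 such courses, each with its own library at 0 h, and the median change of the members at 1 h was negative in 15 of 15, from -0.31 to -0.12 in log2 CPM. The median over 15090 genes lay between -0.01 and 0.00 in the same courses. Of the members, 77 (31.4%) were below their 0 h level at 1 h in all 15 courses, against 3% of all genes, and 156 (63.7%) in at least 12, against 15.5%. Members higher in all 15 numbered 2 (0.816%), against 3.82% of all genes. The single-library mutants thus moved the same way, with no replicate check of their own. At 3 h against 1 h the member median was positive in all 15 courses, from 0.09 to 0.25.

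**Figure D2:**
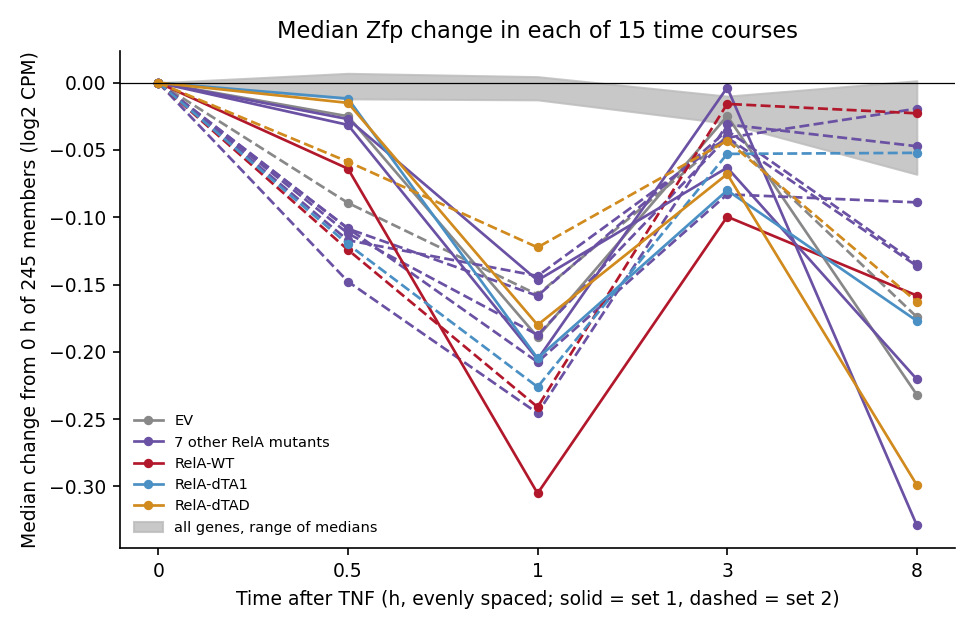
Median log2 change in CPM from 0 h of the 245 members (vertical axis) by time after TNF (horizontal axis, evenly spaced times) in each of 15 courses, solid for set 1 and dashed for set 2, coloured by construct, with the range of the medians over all genes in grey. Each course drops to between -0.31 and -0.12 at 1 h and comes back to between -0.10 and 0.00 at 3 h.

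For 120 of the 245 members (49.0%) the lowest mean log2 CPM of the 5 times in RelA-WT was that at 1 h, against 15.9% of all genes tested. In RelA-dTA1 this held for 99 members (40.4% against 14.6%), in EV for 74 (30.2% against 14.9%) and in RelA-dTAD for 68 (27.8% against 12.3%). In EV and RelA-dTAD more members had their minimum at 8 h, 110 and 115, close to the 43.3% and 43% of all genes that did so. The 1 h changes of the members ran parallel between constructs, with a Pearson r over the 245 members of 0.82 between RelA-WT and RelA-dTA1 and of 0.54 between RelA-WT and EV. These points share the library sets, and genes are not independent replicates. Since the family was picked on its 1 h change, the shares and correlations at 1 h are a description too.

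Members with the KRAB pattern were lower at 1 h than those without it. In RelA-WT the 117 members with the pattern had a median log2 change of -0.38, with 88.9% below 0, and the 127 without it -0.15, with 72.4% below 0. In EV the medians were -0.28 and -0.07, in RelA-dTA1 -0.30 and -0.11, and in RelA-dTAD -0.26 and -0.07. The median of the KRAB class was below that of the other members in all 15 courses at 0.5, 1, 3 and 8 h. At 8 h the gap ran from slight, as in RelA-TA2_S467A (-0.047 against -0.044), to wide, as in EV of set 1 (-0.42 against -0.08). The times of a course share its library at 0 h, so they are not separate checks. A stricter pattern, found in 73 members, gave a median of -0.47 in RelA-WT. The level moved with the class. Among members below the family's median level, the RelA-WT medians were -0.48 with the pattern (84 members) and -0.32 without it (38 members), and among those at or above it -0.23 (33 members) and -0.11 (89 members). The order of the classes held within both levels, and the part of the level in the difference was not tested. By chromosome the RelA-WT medians were -0.38 for the 34 members on chromosome 17, -0.33 for the 55 on chromosome 7 and -0.20 for the rest.

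**Figure D3:**
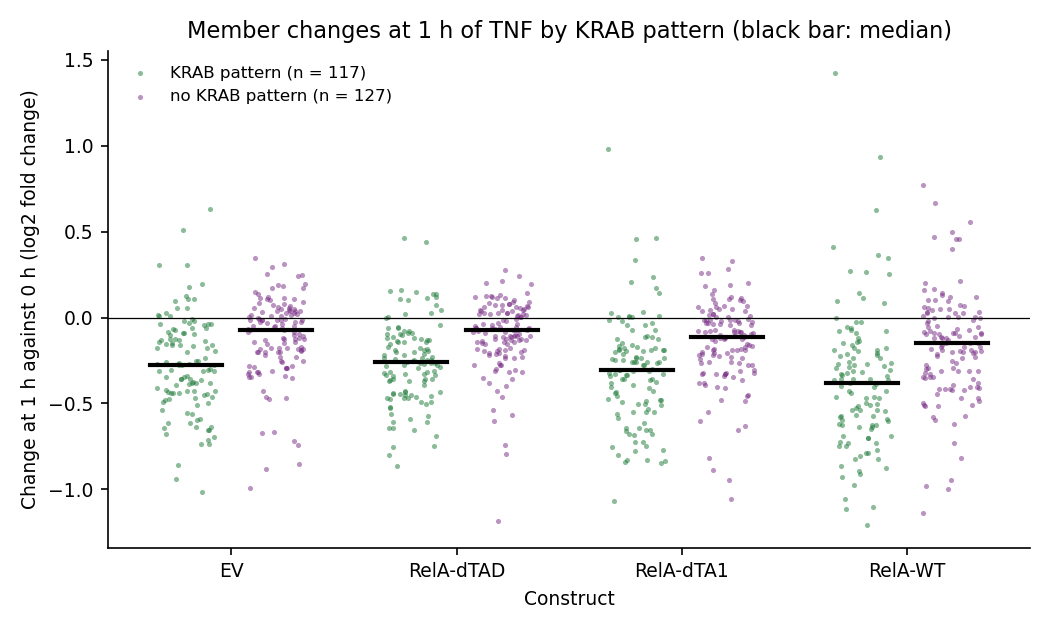
Log2 fold change at 1 h against 0 h (vertical axis) of each member with the KRAB pattern (green, 117 genes) and without it (purple, 127 genes) in the 4 constructs with 2 libraries, with the median as a black bar. The KRAB median is the lower of the pair in each construct, at -0.38 against -0.15 in RelA-WT and -0.28 against -0.07 in EV.

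Some members were higher at 1 h in RelA-WT, 5 of them past the threshold, and the TNF change of 2 of these 5 differed from that in EV. That difference reuses the RelA-WT libraries on which the family was picked, and Zfp429 and Zfp949 were named for their high 1 h values there. The p-values of the 1 h differences are therefore a description and support nothing. Zfp429, a KRAB gene at chr13:67389309-67399767 (mm10), was at 3.83 and 4.56 CPM before TNF in RelA-WT and at 9.35 and 12.96 CPM at 1 h, a log2 change of 1.42 ± 0.27. In EV it went from 3.46 and 3.93 CPM to 0.978 and 2.68 CPM, and in RelA-dTAD from 4.62 and 3.90 CPM to 3.27 and 3.82 CPM. The RelA-WT and EV libraries at 1 h did not overlap. The difference in the TNF change between EV and RelA-WT was -2.28 ± 0.42 (adjusted p = 0.00469, edgeR's quasi-likelihood test with Benjamini-Hochberg adjustment over all genes), and that between RelA-dTAD and RelA-WT -1.64 ± 0.40 (adjusted p = 0.058, or 0.000912 with the replicate block). RelA-dTA1 reached 7.24 and 9.54 CPM at 1 h, and its difference from RelA-WT was -0.44 ± 0.38 (adjusted p = 1). Among the single libraries at 1 h, RelA-TA2_S467A was at 13.1 CPM and RelA-DB at 3.54 CPM, from 4.79 and 2.97 CPM at 0 h.

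Zfp949, another KRAB gene, on chromosome 9, was at 9.27 and 10.4 CPM before TNF in RelA-WT and at 18.7 and 19.0 CPM at 1 h. In EV it was at 10.8 and 14.1 CPM before and 7.24 and 11.4 CPM at 1 h, and in RelA-dTAD at 11.1 and 10.4 CPM before and 6.53 and 8.997 CPM at 1 h. The difference in the TNF change from RelA-WT was -1.32 ± 0.29 in EV (adjusted p = 0.0235) and -1.37 ± 0.29 in RelA-dTAD (adjusted p = 0.0175, both by the same test). As for Zfp429, these p-values are a description, since Zfp949 was named for its 1 h value in RelA-WT. RelA-dTA1 was at 10.1 and 12.1 CPM at 1 h, below both RelA-WT libraries, with a difference of -0.93 ± 0.28 that did not pass (adjusted p = 1, or 0.178 with the replicate block). Zfp46, Zfp217, a transcription coregulator, and Zfp57, a KRAB protein that keeps imprints, followed in RelA-WT with log2 changes at 1 h of 0.67 ± 0.14, 0.77 ± 0.25 and 0.62 ± 0.23. Zfp217 and Zfp57 were not among the members called higher there. Zfp655 had the reverse order. It went from 67.9 and 73.7 CPM to 115 and 104 CPM in EV, but from 80.0 and 73.1 CPM to 84.5 and 78.0 CPM in RelA-WT, a difference of 0.54 ± 0.13 (adjusted p = 0.0442). It was 1 of the members higher at 1 h in all 15 courses. In all, 2 members differed downward and 1 upward between EV and RelA-WT at 1 h (0.578% and 0.022% of all genes), and 1 downward and 0 upward between RelA-dTAD and RelA-WT (0.6% and 0%), with 22 members of the latter at an unadjusted p under 0.05 and 3 called in either direction by DESeq2. The blocked fit called 7 members in EV and 7 in RelA-dTAD, in either direction. Of all genes it called 1.27% lower and 0.183% higher in EV, and 1.43% and 0.22% in RelA-dTAD. Without either set, 0 members were called in these 1 h differences, and that of Zfp429 in EV then lay between -3.10 and -2.06.

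**Figure D4:**
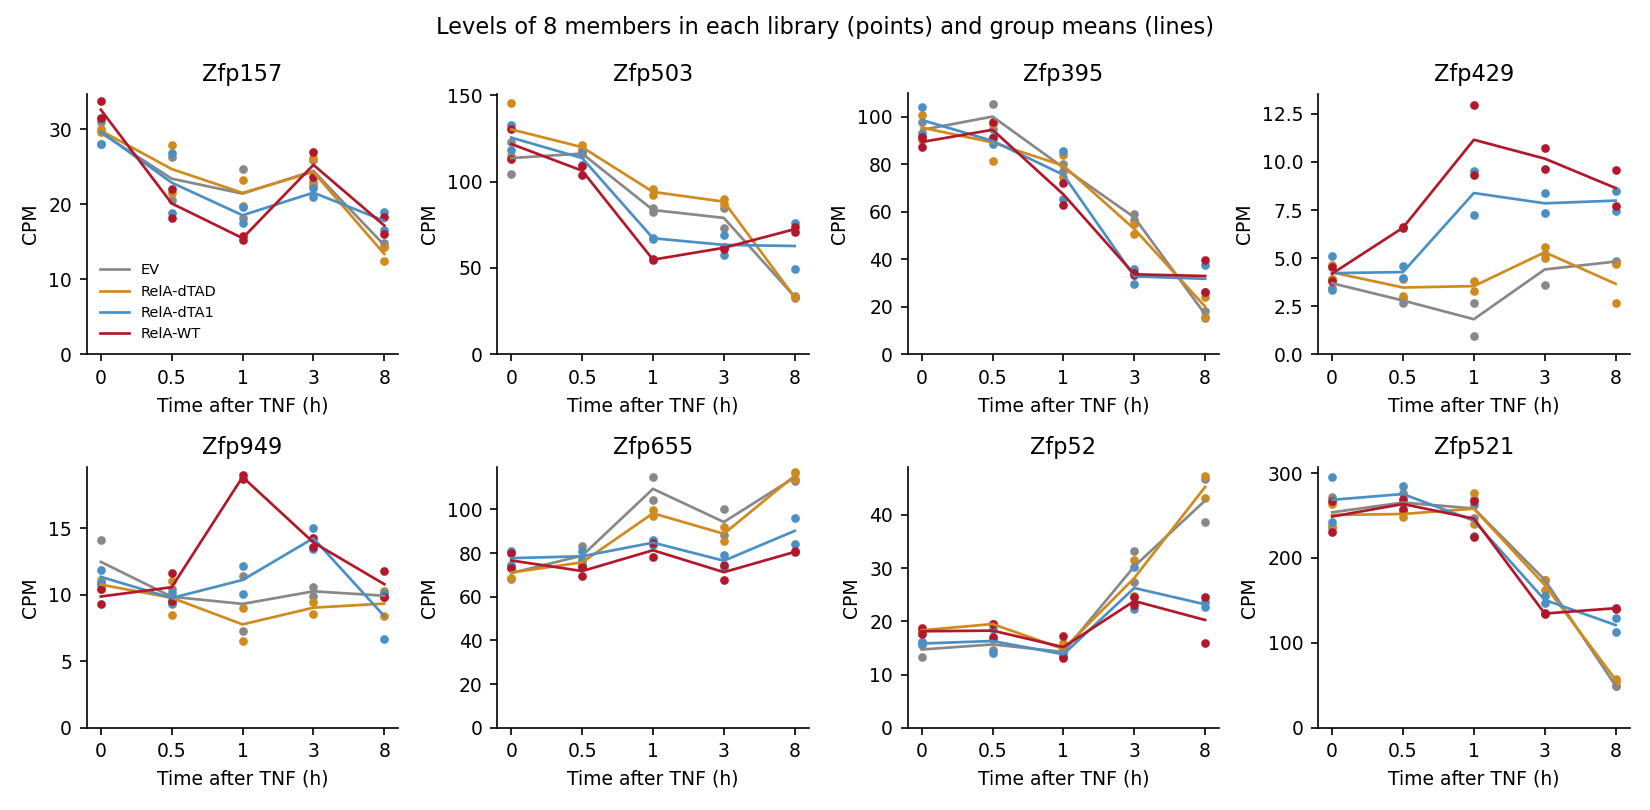
Level in CPM (vertical axis, from 0) by time after TNF (horizontal axis, evenly spaced times) of 8 members in the 4 constructs with 2 libraries, with 1 point per library and lines through the group means. Zfp157 dips at 1 h, Zfp429 is high at 1 h in RelA-WT and RelA-dTA1 and Zfp949 in RelA-WT, and Zfp52 and Zfp521 part by construct at 8 h.

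The promoters of 198 members were matched by symbol in the RefSeq table (GRCm38.p6), in 244 windows of 300 bases around the annotated starts. The windows were searched on both strands for the kappaB consensus, the site class bound by NF-kB, and for other motifs. The 250 bases before the start are shown for Zfp429, the strongest riser in RelA-WT, and for Zfp974, which was lower at 1 h in all 15 courses, with the kappaB match in capitals. Zfp563, one of the members with the lowest 1 h values, is shown with CCAAT, the NF-Y box, in capitals on either strand. These 3 were chosen after their values were seen. Zfp429 is at chr13:67399768-67400017, minus strand. Zfp974 is at chr7:27929459-27929708, minus strand, and Zfp563 at chr17:33089117-33089366, plus strand.
Zfp429: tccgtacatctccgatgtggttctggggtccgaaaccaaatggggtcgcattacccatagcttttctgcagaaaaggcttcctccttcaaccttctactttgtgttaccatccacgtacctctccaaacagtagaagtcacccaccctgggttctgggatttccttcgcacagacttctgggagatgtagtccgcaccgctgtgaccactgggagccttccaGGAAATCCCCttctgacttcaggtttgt
Zfp974: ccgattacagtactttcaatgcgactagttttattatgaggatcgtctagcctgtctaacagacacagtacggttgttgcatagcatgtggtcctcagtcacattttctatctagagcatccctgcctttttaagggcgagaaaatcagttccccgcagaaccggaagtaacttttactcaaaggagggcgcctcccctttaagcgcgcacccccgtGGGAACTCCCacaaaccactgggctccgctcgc
Zfp563: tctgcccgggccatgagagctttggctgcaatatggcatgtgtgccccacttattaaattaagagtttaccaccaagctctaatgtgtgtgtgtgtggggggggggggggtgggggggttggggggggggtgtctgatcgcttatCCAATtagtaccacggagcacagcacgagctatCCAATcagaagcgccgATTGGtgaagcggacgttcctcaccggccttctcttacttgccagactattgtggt
The match in Zfp429 covers bases 28 to 19 before the start and that in Zfp974 bases 33 to 24, both found on the strand opposite to the gene. Zfp974 went from 7.19 and 10.3 CPM to 3.63 and 6.81 CPM at 1 h in RelA-WT, so that a match was found in a member that was lower as well as in one that was higher. Zfp563 has 3 CCAAT boxes within the 105 bases before its start. Over the family a kappaB match was found in 8 of 198 members (4.04%), against 5.14% of all 27025 genes in the table. CCAAT was found in 50% of the members against 41.1% of all genes, TATAAA in 8.08% against 15.7%, and the long element bound by the zinc finger protein Zfp143, itself a member, in 2.53% (5 members) against 0.322%. In RelA-WT at 1 h the median log2 change was -0.31 with CCAAT and -0.21 without it, and 0.05 with a kappaB match and -0.27 without one. A match is a description of these letters only.

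At 0.5 h little had passed the test. In RelA-WT 2 members fell and 0 rose (0.0366% and 0.776% of all genes by edgeR's quasi-likelihood test), with 32 members at an unadjusted p under 0.05 in either direction and the same 2 to 0 by DESeq2. Zfp87, a KRAB gene, fell from 18.7 and 16.4 CPM to 8.65 and 7.14 CPM, by 1.16 ± 0.16 on the log2 scale (adjusted p = 5.92e-05), and was back at 11.6 and 11.6 CPM at 1 h. Its minimum thus came before that of the family. In EV it went from 18.0 and 17.2 CPM to 9.62 and 12.1 CPM, a log2 change of -0.67 ± 0.16 (adjusted p = 0.0595, or 0.0129 with the replicate block). Zfp157 fell by 0.70 ± 0.17 in RelA-WT (adjusted p = 0.043), to 22.1 and 18.1 CPM on its way to the 1 h minimum. It was also named for its low value at 1 h, which uses the same 0 h libraries, so this p-value is no separate support. In EV, RelA-dTA1 and RelA-dTAD, 0 members changed at 0.5 h by edgeR or DESeq2 (0%, 0.0146% and 0% of all genes lower, and 0.402%, 0.615% and 0.439% higher), with 15, 19 and 8 members at an unadjusted p under 0.05. In the blocked fit 7 members fell and 2 rose in RelA-WT (0.176% and 1.13% of all genes), and 2 and 0 in EV (0.0805% and 0.703%). These counts were 6 and 0 in RelA-dTA1 (0.161% and 1.02%), and 1 and 1 in RelA-dTAD (0.0951% and 0.834%). Without set 1, 1 member was called in RelA-WT, and without set 2, 0. The median change was -0.09 in RelA-WT.

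Between 1 h and 3 h most members came back. The median log2 difference of 3 h from 1 h was 0.24 in RelA-WT, 0.18 in RelA-dTA1, 0.14 in EV and 0.13 in RelA-dTAD. In RelA-WT 36 members were called higher and 6 lower at 3 h than at 1 h, where 7.84% and 4.59% of all genes were. In RelA-dTA1 these were 21 and 5 (6.66% and 3.05%), in EV 2 and 1 (0.739% and 0.351%) and in RelA-dTAD 1 and 2 (0.432% and 0.212%). This comparison shares its 1 h libraries with the one for which the family was picked, and is likewise a description. All 19 members called lower at 1 h in RelA-WT were higher at 3 h than at 1 h, and 1 of the 19 was still called lower at 3 h than at 0 h and 4 at 8 h. All 19 were below 0 at 1 h in EV, RelA-dTA1 and RelA-dTAD too. The KRAB pattern was found in 16 of the 19, and in 117 of all 245 members, which have the lower median level (12.3 CPM against 31.8 CPM). The 19 were called on the contrast for which the family was picked, so their make-up is a description and supports nothing. The blocked fit called 73 members higher and 15 lower in RelA-WT, where it called 14.2% and 12.1% of all genes.

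Against 0 h, 15 members fell and 11 rose at 3 h in RelA-WT (5.74% and 10.5% of all genes), and the member median was -0.05. The members that had fallen by 3 h were mostly others than those of 1 h. Zfp395 fell from 91.5 and 87.2 CPM to 33.3 and 34.0 CPM, by 1.40 ± 0.18 on the log2 scale (adjusted p = 2.57e-06, edgeR's quasi-likelihood test). Zfp608 fell by 1.29 ± 0.13 (adjusted p = 8.34e-08), Zfp503 by 0.97 ± 0.13 (adjusted p = 7.12e-06) and Zfp521 by 0.88 ± 0.11 (adjusted p = 1.14e-06), from 267 and 230.4 CPM to 134 and 135 CPM. Zfp810, a KRAB gene, fell from 14.7 and 11.1 CPM to 7.63 and 5.54 CPM, by 0.98 ± 0.32 (adjusted p = 0.0346). Of the 15 that fell, 5 have the KRAB pattern, Zfp810 among them, and 10 do not, among them the other 4 named. The largest rises were those of Zfp429 (1.27 ± 0.28, adjusted p = 0.00188), Zfp263 (0.89 ± 0.15, adjusted p = 0.000112) and Zfp281, a transcription factor of pluripotent cells (0.85 ± 0.18, adjusted p = 0.00127). In EV 4 members fell and 2 rose (0.922% and 3.02%), with Zfp395 at -0.70 ± 0.17 (adjusted p = 0.0184) and Zfp52, a KRAB gene, at 1.05 ± 0.18 (adjusted p = 0.00105). RelA-dTA1 had 14 and 9 (4.87% and 9.58%) and RelA-dTAD 7 and 1 (0.629% and 2.28%). With the replicate block the calls lower and higher were 31 and 25 in RelA-WT (14.1% and 16.9% of all genes), and 19 and 11 in EV (7% and 9.23%). They were 40 and 25 in RelA-dTA1 (13.4% and 17.1%), and 12 and 7 in RelA-dTAD (5.06% and 7.38%). With 1 set left out, RelA-WT had 5 to 9 calls in all and EV 0 to 1. With library totals as the only scaling, the median of all genes moved to -0.13 in RelA-WT, -0.14 in RelA-dTA1 and -0.05 in RelA-dTAD. More members were then called lower in RelA-WT and RelA-dTA1, and fewer higher in these and RelA-dTAD. The share of all genes called with this scaling was not counted.

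Differences from RelA-WT at 3 h were called for few members. In EV 2 were lower and 2 higher (2.8% and 0.878% of all genes), and in RelA-dTAD 2 and 1 (2.5% and 0.6%). With the replicate block 5.77% and 3.29% of all genes were called in EV, and 5.53% and 2.81% in RelA-dTAD. Zfp945, a KRAB gene, rose in RelA-WT from 26.0 and 27.7 CPM to 42.4 and 40.6 CPM, while EV went from 36.6 and 28.5 CPM to 26.1 and 25.3 CPM. The TNF change differed by -0.96 ± 0.23 in EV (adjusted p = 0.014) and by -0.97 ± 0.23 in RelA-dTAD (adjusted p = 0.0155). Zfp275 rose in RelA-WT from 99.1 and 99.2 CPM to 155 and 153 CPM, against 102.6 and 106 CPM at 3 h in EV, a difference of -0.51 ± 0.11 (adjusted p = 0.00432). Zfp608 was lower in RelA-WT, at 24.7 and 23.9 CPM at 3 h, than in EV, at 40.6 and 41.7 CPM, and its TNF change differed by 0.93 ± 0.18 (adjusted p = 0.00238). For each of these genes the 3 h libraries of the constructs did not overlap. In the fit with the block 14 members differed in EV and 9 in RelA-dTAD, and with either set left out of both constructs 0 did.

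At 8 h members were called in both directions, most often in EV and RelA-dTAD, where all genes were called most often too. In EV 73 members fell and 40 rose (23.1% and 25.6% of all genes), and in RelA-dTAD 74 and 32 (22.5% and 24.4%). In RelA-WT 25 fell and 12 rose (11.6% and 15.8%), and in RelA-dTA1 37 and 14 (15.3% and 19.4%). As shares of the members, those that fell and rose were 29.8% and 16.3% in EV and 10.2% and 4.9% in RelA-WT. The share that rose thus lay below that of all genes in both constructs. The share that fell lay above that of all genes in EV and slightly below it in RelA-WT. The median changes were -0.19 in EV, -0.21 in RelA-dTAD, -0.07 in RelA-WT and -0.12 in RelA-dTA1. In EV 43 of the 117 members with the KRAB pattern fell and 11 rose (median -0.35), while of the 127 members without the pattern 30 fell and 28 rose (median 0.03). With library totals as the only scaling the median of all genes moved to -0.25 at 8 h in EV and to -0.16 in RelA-WT. That of the members moved to -0.42 and -0.20. More members were then called lower and fewer higher in each of the 4 constructs. The share of all genes called with this scaling was not counted. Blocked calls were 43 and 21 in RelA-WT (21.7% and 23.1% of all genes) and 60 and 23 in RelA-dTA1 (25.6% and 26.6%). With 1 set left out, the calls in all were 65 to 77 in EV, 54 to 65 in RelA-dTAD, 6 to 19 in RelA-WT and 11 to 32 in RelA-dTA1.

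Zfp395 and Zfp521 led the falls at 8 h in EV. Zfp521 went from 272 and 236 CPM to 49.2 and 49.8 CPM in EV, a fall by 2.32 ± 0.11 on the log2 scale (adjusted p = 1.34e-13, edgeR's quasi-likelihood test), and to 140.4 and 141 CPM in RelA-WT. The difference between the constructs was -1.498 ± 0.15 (adjusted p = 1.84e-07). In RelA-dTAD it ended at 55.7 and 57.5 CPM, with a difference of -1.30 ± 0.15 (adjusted p = 2.15e-06), so that the libraries of EV and RelA-dTAD lay far below both of RelA-WT. Zfp395 fell by 2.43 ± 0.19 in EV (adjusted p = 2.97e-10), to 15.3 and 18.3 CPM, and by 1.41 ± 0.18 in RelA-WT (adjusted p = 1.58e-06), to 26.1 and 39.8 CPM. Zfp41 went from 23.2 and 18.9 CPM to 5.02 and 5.70 CPM in EV, where RelA-WT went from 22.7 and 19.2 CPM to 14.8 and 19.6 CPM, a difference of -1.65 ± 0.24 (adjusted p = 3.26e-05). Zfp503, low at 1 h in RelA-WT, had crossed over by 8 h. It stood at 33.9 and 32.7 CPM in EV and 33.0 and 33.0 CPM in RelA-dTAD, against 70.9 and 74.0 CPM in RelA-WT, and the difference of RelA-dTAD was -1.21 ± 0.19 (adjusted p = 9.59e-05).

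Other members rose at 8 h in EV more than in RelA-WT. Zfp593, a factor of ribosome assembly, rose from 9.13 and 9.63 CPM to 35.1 and 30.4 CPM in EV, by 1.83 ± 0.20 (adjusted p = 6.04e-08), and from 7.99 and 9.35 CPM to 15.6 and 18.3 CPM in RelA-WT, by 0.96 ± 0.20 (adjusted p = 0.000907). The difference was 0.87 ± 0.28 (adjusted p = 0.0348). Zfp52 rose from 16.2 and 13.3 CPM to 38.7 and 46.7 CPM in EV and stood at 43.2 and 47.3 CPM in RelA-dTAD, against 16.01 and 24.5 CPM in RelA-WT, and its TNF change differed from that of RelA-WT by 1.40 ± 0.26 in EV (adjusted p = 0.000359). Zfp697 rose from 6.92 and 8.35 CPM to 25.6 and 26.1 CPM in EV, against 12.6 and 7.35 CPM in RelA-WT, a difference of 1.76 ± 0.38 (adjusted p = 0.00191). The EV and RelA-WT libraries of all 3 genes at 8 h did not overlap. Between EV and RelA-WT 14 members differed downward and 9 upward at 8 h (7.9% and 9.67% of all genes), and between RelA-dTAD and RelA-WT 13 and 6 (5.8% and 6.45%). With the replicate block these were 28 and 24 in EV (15.2% and 18.3% of all genes), and 28 and 17 in RelA-dTAD (12.9% and 14.9%). With either set left out of both constructs, 6 to 7 members differed in EV and 3 in RelA-dTAD.

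**Figure D5:**
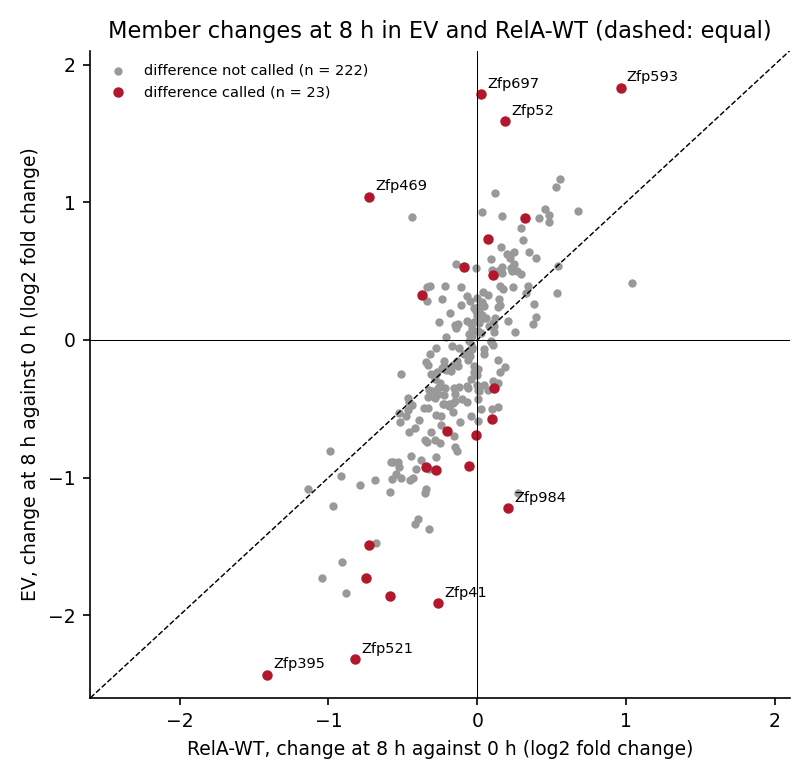
Log2 fold change at 8 h against 0 h of each member in EV (vertical axis) and RelA-WT (horizontal axis), with the dashed line where both are equal. The 23 members whose difference was called are red, among them Zfp521 and Zfp41 below the line and Zfp697, Zfp52 and Zfp593 above it.

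RelA-dTA1 was not told apart from RelA-WT for any member. At 0.5, 1, 3 and 8 h, 0 members differed by edgeR's quasi-likelihood test or DESeq2 in either direction, with 2, 4, 3 and 1 members at an unadjusted p under 0.05, and 1 with the replicate block at 1 h. Of all genes 0.0146%, 0%, 0% and 0% were lower and 0% higher. With the block at 1 h, 0.198% of all genes were lower and 0.0293% higher. At 1 h the differences ranged from -0.93 to 0.59 with a median of 0.05, so single members may still differ by such amounts. Before TNF, 0 members differed between RelA-WT and EV, RelA-dTA1 or RelA-dTAD by edgeR or DESeq2 (0.563%, 0% and 0.0293% of all genes lower, and 0% higher in each), with 0, 2 and 0 members at an unadjusted p under 0.05. At 0.5 h, 0 members differed from RelA-WT in EV or RelA-dTAD by either tool (0.0805% of all genes lower and 0% higher in both), with 6 and 7 at an unadjusted p under 0.05.

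The members with a textbook role were read from a list of 38 symbols, of which 35 are members. At 1 h in RelA-WT their median log2 change was 0.00, with 1 called lower (Zfp503) and 1 higher (Zfp622), and the dip of the family was not seen in their median. Most of the 35 have no KRAB pattern, and Zfp106, Zfp91 and Zfp521, the members of highest level, are among them. The part of class and level in the values of this list was not tested. At 8 h in EV 5 of the 35 fell and 18 rose (14.3% and 51.4%, median 0.32), where 23.1% of all genes fell and 25.6% rose. In RelA-WT 5 fell and 6 rose (14.3% and 17.1%, median 0.05), near the 11.6% and 15.8% of all genes. Zfp622 and Zfp593, both factors of the large ribosomal subunit, rose in EV at 8 h, by 0.50 ± 0.09 for Zfp622 (adjusted p = 3.53e-05, edgeR's quasi-likelihood test), as did Zfp598, a ubiquitin ligase of collided ribosomes, by 0.64 ± 0.13 (adjusted p = 0.000259), Zfp451, a SUMO ligase, by 0.89 ± 0.12 (adjusted p = 2.53e-06), and Zfp568, a KRAB repressor of placental Igf2, by 1.11 ± 0.24 (adjusted p = 0.000434). Zfp57 rose from 30.8 and 28.8 CPM to 55.7 and 55.0 CPM in EV, by 0.93 ± 0.22 (adjusted p = 0.00134), and was at 24.9 and 28.0 CPM in RelA-WT. Zfp809, a KRAB protein known to silence murine leukaemia proviruses, was at 8.71 and 8.19 CPM before TNF in EV and at 10.0 and 14.4 CPM at 8 h, a rise by 0.60 ± 0.20 (adjusted p = 0.016). In RelA-WT it was at 10.1 and 7.78 CPM before TNF and at 12.0 and 11.4 CPM at 8 h (log2 change 0.40 ± 0.20, adjusted p = 0.147).

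The genes of the machinery through which KRAB proteins silence lay on both sides of their 0 h level at 1 h in RelA-WT, with a median of 0.01 over the 19 tested and 8 of them below 0. Smarcad1, a chromatin remodeller, fell by 0.38 ± 0.10 (adjusted p = 0.0259, edgeR's quasi-likelihood test). With the replicate block 3 of the 19 were called, Smarcad1, Fam208a, a subunit of the HUSH complex, at -0.34 ± 0.19 (adjusted p = 0.699 without the block and 0.0373 with it), and Resf1, a partner of Setdb1, at 0.78 ± 0.32 (adjusted p = 0.329 and 0.00206). Trim28 and Setdb1 were not called at 1 h in either fit. At 8 h in EV 2 of the 19 fell and 6 rose (10.5% and 31.6%). Atf7ip, a cofactor of Setdb1, fell by 1.44 ± 0.13 in EV (adjusted p = 1.62e-09) and by 0.48 ± 0.12 in RelA-WT (adjusted p = 0.00398, edgeR's quasi-likelihood test). Other zinc finger families were set beside the members at 1 h in RelA-WT. The 36 Zbtb genes tested, with a BTB domain in place of KRAB, had a median of -0.14 with 0 called lower and 3 higher. For the 15 Zc3h genes, of the CCCH type, it was 0.02 with 0 and 2. The 21 Zscan and Zkscan genes, which carry a SCAN domain and in part KRAB, had -0.32 with 2 and 0. Of all genes 0.695% were called lower and 2.55% higher. The Zscan and Zkscan median lay below the -0.26 of the members, so the dip was not particular to the numbered Zfp genes. Genes of any kind in the members' range of levels numbered 10250, with a median of 0.00.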

How the data were processed

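Polyadenylated RNA of 75 libraries was sequenced, in 55 groups of construct and time. The authors deposited raw read counts for each gene. Tools named in the submitters' processing notes are cutadapt 1.9.1 for trimming, STAR for alignment (build mm10), featureCounts 1.5.0 for counting, and DESeq2. The strand setting is not given in the sources used here.

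Symbols were found for 98.77% of entries. The members and the lists were chosen with earlier results of these data known. Tests used edgeR 4.0.16 (R 4.3.3) on the deposited counts of the 40 libraries of the 4 constructs with 2 libraries per time, with TMM scaling, filterByExpr (13665 genes, all 245 members among them), 1 mean per construct and time, the robust quasi-likelihood test and Benjamini-Hochberg adjustment over all genes at 0.05. Levels are CPM with TMM scaling. Changes are log2 fold changes ± SE. Courses use log2 CPM with a prior count of 2 over 15090 genes. Coordinates of genes are those of mm10, 1-based. KRAB and finger patterns were searched in translations of GENCODE vM21 transcripts. The wider KRAB pattern was added after a stricter one missed known KRAB genes. Scripts were tested on simulated data.

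Genes named are the 8 of highest mean, the 10 lowest and 5 highest at 1 h in RelA-WT and 5 lowest in EV, up to 5 called per direction at other times and for differences, those at the 5 CPM threshold, and a list of members with textbook roles. Zfp12, Zfp974 and the 3 promoters shown were chosen after their values were seen.

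Replicate numbers follow the sets. In 190 pairs of groups, deviations of same-numbered libraries correlated at 0.357 to 0.668 (median 0.526), and 15.1% of the variance lay on the principal component along which the sets part, so the numbers pair the samples. The main fit leaves this pairing out, and SEs, p-values and calls come from it unless another fit is named. Alternatives were the replicate block, relative log expression or library-total scaling, DESeq2 1.42.0, no filter, other membership thresholds, and leaving out either set.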

Additional observations from a re-analysis of the deposited data

Results flagged for a closer look

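The TNF change differed between constructs, by a test of the difference itself, for the members below, which for 8 h are the 5 lowest and the 5 highest of those called, out of 14 and 9 in EV and 13 and 6 in RelA-dTAD. As shares of the 245 members, these 8 h counts lay below the shares of all genes. Values are log2 differences from RelA-WT, negative where the change was lower than in RelA-WT. In EV at 1 h these were Zfp429 at -2.28, Zfp949 at -1.32 and Zfp655 at 0.54. In EV at 3 h they were Zfp945 at -0.96, Zfp275 at -0.51, Zfp608 at 0.93 and Zfp655 at 0.51. In EV at 8 h the 5 lowest were Zfp41 at -1.65, Zfp521 at -1.498, Zfp984 at -1.43, Zfp647 at -1.27 and Zfp395 at -1.02, and the 5 highest Zfp469 at 1.77, Zfp697 at 1.76, Zfp52 at 1.40, Zfp593 at 0.87 and Zfp326 at 0.70. Of these, Zfp984 overlaps another tested gene on the same strand.

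In RelA-dTAD, Zfp949 differed by -1.37 at 1 h. At 3 h Zfp945 differed by -0.97, Zfp275 by -0.66 and Zfp608 by 0.77. At 8 h the 5 lowest were Zfp41 at -1.45, Zfp521 at -1.30, Zfp503 at -1.21, Zfp984 at -1.17 and Zfp229 at -0.85, and the 5 highest Zfp469 at 1.501, Zfp697 at 1.31, Zfp52 at 1.14, Zfp655 at 0.64 and Zfp326 at 0.64. Both lists are set against the same RelA-WT libraries. The 1 h differences use the 1 h libraries on which the family was picked, and are a description. No such difference was called for RelA-dTA1 without the replicate block.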

How the results depend on the processing

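Across the settings tried, no result changed direction. The count of members called depends on whether the set enters the fit and on whether both sets are kept. The pairing of the sets justifies the replicate block, which the main fit leaves out. With the block, the calls in both directions together were 2 in EV, 9 in RelA-WT, 6 in RelA-dTA1 and 2 in RelA-dTAD at 0.5 h. These calls were 14, 77, 40 and 11 at 1 h, then 30, 56, 65 and 19 at 3 h. At 8 h they were 64 in RelA-WT and 83 in RelA-dTA1. For 3 h against 1 h the blocked calls were 22, 88, 72 and 17 in the same order. Of all genes 4.37% were higher and 4.17% lower in EV, 13.5% and 10.5% in RelA-dTA1, and 3.34% and 2.73% in RelA-dTAD. Differences from RelA-WT with the block were called for 7, 14 and 52 members in EV at 1, 3 and 8 h, for 7, 9 and 45 in RelA-dTAD, and for 1 in RelA-dTA1 at 1 h. The block changed no other count by more than 1.5 times.

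DESeq2 called 2 members in EV at 1 h, 5 in EV for 3 h against 1 h, 16 in RelA-WT at 3 h, and 3 in the 1 h difference of RelA-dTAD. Without the filter on low counts, 2 members were called in EV and 1 in RelA-dTAD at 1 h, 4 in RelA-dTAD at 3 h, 10 in RelA-dTA1 for 3 h against 1 h, and 5 and 4 in the 1 h differences of EV and RelA-dTAD. Scaling by relative log expression moved no count by more than 1.5 times. The cause of these shifts was not tested.

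The 1 h medians with library totals as the only scaling were -0.22 in EV, -0.33 in RelA-WT, -0.24 in RelA-dTA1 and -0.19 in RelA-dTAD, where the median of all genes shifted down as well. With a membership mean of at least 2 CPM they were -0.19 in EV, -0.22 in RelA-dTA1 and -0.19 in RelA-dTAD, and with at least 10 CPM -0.12 in EV, -0.19 in RelA-WT and -0.17 in RelA-dTA1.

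Leaving out either set for a construct leaves 1 library per group, assumed to vary like the other groups. Medians at 1 h then lay between -0.19 and -0.15 in EV, -0.22 and -0.20 in RelA-dTA1, and -0.19 and -0.13 in RelA-dTAD. Calls were 0 to 1 at 1 h, 0 to 1 at 3 h and 65 to 77 at 8 h in EV, 0 to 1 at 0.5 h, 4 to 4 at 1 h, 5 to 9 at 3 h and 6 to 19 at 8 h in RelA-WT, 1 to 1, 6 to 8 and 11 to 32 at 1, 3 and 8 h in RelA-dTA1, and 0 to 0, 0 to 0 and 54 to 65 in RelA-dTAD. For 3 h against 1 h they were 0 to 0 in EV and RelA-dTAD, 7 to 15 in RelA-WT and 4 to 7 in RelA-dTA1. Differences were 0 to 0 at 1 and 3 h in EV and RelA-dTAD, and 6 to 7 and 3 to 3 at 8 h. Members near 5 CPM had few reads in set 1, which limits their precision.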
